A study of Rattus rattus with 8 samples.

Results

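The heat shock proteins and chaperones described here are the products of Hspa1b, Hspa5, Hspa8, Hspb1, Hsp90aa1, Hsp90ab1, Hspd1 and Hspe1. The members were the array probes whose accession in the scanner files equals 1 of 8 listed accessions, and the list was chosen with earlier results of these data known. The accession listed for Hspa1b has 0 probes and was dropped, so that 7 of the 8 genes are described, through 14 of the 30367 different probes on the array. Chaperones bind unfolded or partly folded proteins, keep them from clumping and help them fold. Some of them are made in every cell at all times, and others are made in larger amounts after heat or other stress, under the control of heat shock factors in the cytosol and of the unfolded protein response in the endoplasmic reticulum. Keratinocytes, which build the hair shaft and its sheaths, carry the small heat shock protein Hspb1 in abundance.

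The study asked whether hair follicles carry a transcriptional trace of a blast to the head. Whisker follicles pulled from male adult Sprague-Dawley rats were pooled within each rat, and the RNA of each of 8 rats was labelled with Cy3 and hybridized to its own array. The 3 sham controls (C1, C2 and C3, 0 kPa) and the 5 blast rats were all anaesthetised. The blast rats received a single simulated shock wave to the head, at 145 kPa in 2 rats (M2 and M3), at 175 kPa in 1 rat (H1) and at 200 kPa in 2 rats (XH1 and XH3). Rats were killed at an earlier or a later time after exposure, and which rat belongs to which time is not given in the sources used here. The median processed signal of an array lay between 90.9 (C2) and 280.5 (C1), and between 65.9% (M3) and 73.0% (C1) of its spots were well above background. The number of arrays limits the precision. Whole follicles are a mixture of cell types, and fewer cells of a type and less RNA per cell cannot be told apart in them. Apart from Hbb, cell type markers were not analysed here, because the gene table at hand matched 0 of the accessions on the array, so the labelled tissue was not checked against them.

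No member separated blast rats from sham controls. In limma, 0 of the 7 members had an unadjusted p under 0.05, where 2.80% of all 30366 probes tested did (850 probes), and 0 members had groups without overlap (every blast rat higher, or every one lower, than each sham control), where 2.0% of all probes did. After Benjamini-Hochberg adjustment over all probes, 0 members and 0.00% of all probes had a limma p under 0.05. The limma adjusted p of each member was 0.9999. By the analysis of variance that the methods name, 0 members and 683 of all probes had an unadjusted p under 0.05, and 0 probes passed after adjustment. The log2 fold change, blast over sham, was positive in 4 members and negative in 3 (5 and 2 with arrays scaled to the 75th percentile, 3 and 4 with normexp background correction), with a median of 0.01 against 0.00 over all probes tested. The median size of the fold change, whatever its sign, was 0.10 on the log2 scale for the members and 0.18 for the 17468 probes that were well above background on all 8 arrays. All 14 member probes were among these, and none was saturated on any array. With 3 sham controls and 5 blast rats the smallest p that a two-sided exact permutation test can give is 0.0179, and each member's p below comes from that test.

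**Figure D1:**
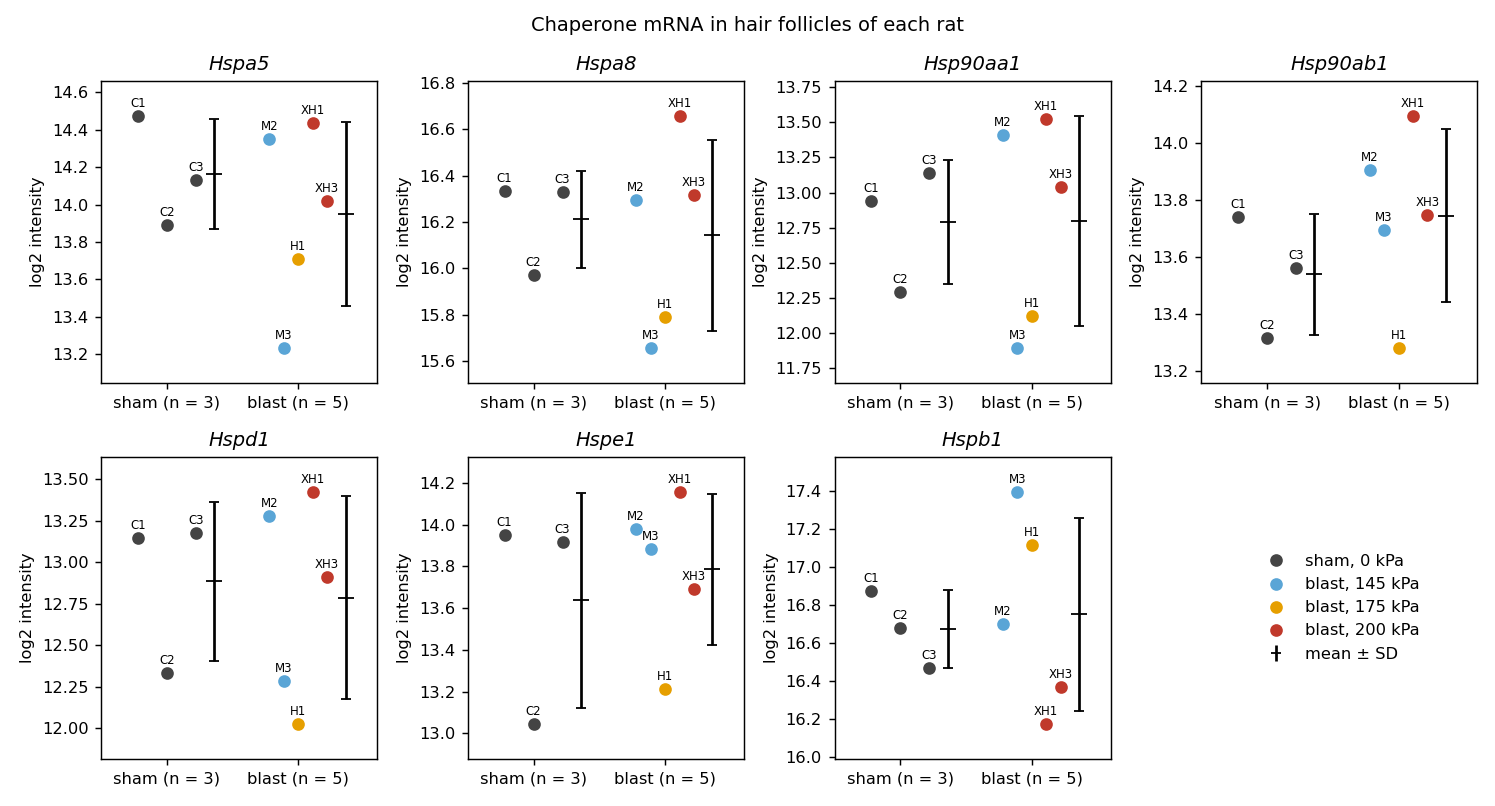
Normalized log2 intensity (vertical axis, a separate scale in each panel that does not start at 0) of the brightest probe of each of the 7 members in 3 sham controls and 5 blast rats, coloured by pressure, with the mean ± SD of each group. In every panel the groups overlap, and the blast rats reach from M3 or H1 at one end to XH1 at the other.

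The Hsp70 family was measured in the endoplasmic reticulum and in the cytosol. Hspa5 (NM_013083), the Hsp70 of the endoplasmic reticulum and a usual marker of the unfolded protein response, had a log2 intensity of 14.47 in C1, 13.89 in C2 and 14.13 in C3, and of 14.35 in M2, 13.23 in M3, 13.71 in H1, 14.44 in XH1 and 14.02 in XH3. M3 and H1 lay below all sham controls, and the other blast rats lay within the sham range. The sham mean was 14.17 ± 0.29 (SD, n = 3) and the blast mean 13.95 ± 0.49 (SD, n = 5), which put the log2 fold change at -0.22 (SE 0.30, exact permutation p = 0.536). The 95% interval ran from -0.92 to 0.48. Hspa8 (NM_024351), the Hsp70 that the cytosol holds without stress, stood at 16.33 in C1, 15.97 in C2 and 16.33 in C3, and at 16.29 in M2, 15.65 in M3, 15.79 in H1, 16.66 in XH1 and 16.32 in XH3. Again M3 and H1 were the lowest rats, while XH1 was the highest of all 8. The sham mean was 16.21 ± 0.21 (SD, n = 3) and the blast mean 16.14 ± 0.41 (SD, n = 5), which put the log2 fold change at -0.07 (SE 0.25, exact permutation p = 0.75).

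The 4 probes of Hspa8 did not move alike. The brightest probe and A_64_P061286 had a Pearson correlation of 0.99 across the 8 rats, and A_64_P061286 had a log2 fold change of -0.05. The other pair, A_64_P014723 and A_64_P096381, correlated at 0.94 with each other but between 0.38 and 0.59 with the first pair, and blast minus sham was 0.36 for the one and 0.33 for the other on the log2 scale (exact permutation p = 0.107 and p = 0.25). On A_64_P014723 the log2 intensity was 9.70 in C1, 9.64 in C2 and 10.01 in C3, and 10.14 in M2, 10.25 in M3, 9.74 in H1, 10.47 in XH1 and 10.11 in XH3. There M2, M3, XH1 and XH3 exceeded every sham control, and H1 was inside the sham range. Which transcripts each of these probes binds was not tested, and their mean gave a log2 fold change of 0.14.

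The cytosolic Hsp90 proteins, which hold kinases and steroid receptors in a state ready for activation, were represented by the form that stress induces, Hsp90aa1, and the form made steadily, Hsp90ab1. Hsp90aa1 (NM_175761) had a log2 intensity of 12.94 in C1, 12.29 in C2 and 13.14 in C3, and of 13.41 in M2, 11.89 in M3, 12.12 in H1, 13.53 in XH1 and 13.04 in XH3. The blast rats fell on both sides of the sham controls, with M2 and XH1 above all of them and M3 and H1 below all of them. The group means were almost equal, at 12.79 ± 0.44 (SD, n = 3) and 12.80 ± 0.75 (SD, n = 5), while the distance from M3 to XH1 was 3.11-fold, the widest range among the members' brightest probes (the second probe of Hspe1 had 3.25-fold). This put the log2 fold change at 0.01 (SE 0.44, exact permutation p = 1), with a 95% interval from -1.03 to 1.05 that reaches changes of 2.06-fold. The other probes of Hsp90aa1 had log2 fold changes of -0.08 and 0.08, and the 3 probes correlated between 0.86 and 0.98 across rats.

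Hsp90ab1 (NM_001004082) stood at 13.74 in C1, 13.32 in C2 and 13.56 in C3, and at 13.91 in M2, 13.69 in M3, 13.28 in H1, 14.09 in XH1 and 13.75 in XH3. M2, XH1 and, by a small margin, XH3 were above all sham controls, and H1 was below them. The sham mean was 13.54 ± 0.21 (SD, n = 3) and the blast mean 13.74 ± 0.30 (SD, n = 5), which put the log2 fold change at 0.21 (SE 0.20, exact permutation p = 0.357). On the second probe of Hsp90ab1 blast minus sham was -0.15 on the log2 scale (exact permutation p = 0.518), with a correlation of 0.70 with the brightest, so the sign of this difference changed with the probe. Among the members' brightest probes that of Hsp90ab1 had the smallest spread between rats, with a pooled SD of 0.28 (0.40 on its second probe), and that of Hsp90aa1 the largest, with 0.66. Of the probes well above background on all arrays, 23.5% had a smaller pooled SD than this probe of Hsp90ab1 and 84.1% a smaller one than that of Hsp90aa1.

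Hspd1 and Hspe1 encode the chaperonin of mitochondria and its lid, which fold imported proteins together. Hspd1 (NM_022229) had a log2 intensity of 13.15 in C1, 12.33 in C2 and 13.18 in C3, and of 13.27 in M2, 12.28 in M3, 12.02 in H1, 13.42 in XH1 and 12.91 in XH3. C2, M3 and H1 formed a low set and the other 5 rats a high one, each holding both sham control and blast rats. The sham mean was 12.89 ± 0.48 (SD, n = 3) and the blast mean 12.78 ± 0.61 (SD, n = 5), which put the log2 fold change at -0.10 (SE 0.38, exact permutation p = 0.75). Hspe1 (NM_012966) stood at 13.95 in C1, 13.04 in C2 and 13.92 in C3, and at 13.98 in M2, 13.88 in M3, 13.21 in H1, 14.16 in XH1 and 13.69 in XH3. On this probe the low rats were C2 and H1, and M3 was close to the high rats, whereas on the second probe of Hspe1 M3 (12.20) was low as well, with C2 (11.93) and H1 (11.57). The sham mean was 13.64 ± 0.51 (SD, n = 3) and the blast mean 13.79 ± 0.36 (SD, n = 5), which put the log2 fold change at 0.15 (SE 0.29, exact permutation p = 0.696). Without C2 it was -0.15, and the second probe of Hspe1 gave 0.01.

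Hspb1 (NM_031970), the small heat shock protein that holds unfolded proteins and binds the cytoskeleton, had a log2 intensity of 16.88 in C1, 16.68 in C2 and 16.47 in C3, and of 16.70 in M2, 17.40 in M3, 17.11 in H1, 16.17 in XH1 and 16.37 in XH3. Its order of rats ran against that of Hspa8, with M3 and H1 highest and XH1 lowest. The blast rats again spread to both sides of the sham controls, 2 above and 2 below. The sham mean was 16.68 ± 0.20 (SD, n = 3) and the blast mean 16.75 ± 0.51 (SD, n = 5), which put the log2 fold change at 0.08 (SE 0.30, exact permutation p = 0.804).

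The pressure of the shock wave was compared among the 5 blast rats, where it differs. In limma, 0 of the 7 members had a slope at an unadjusted p under 0.05, against 2.84% of the 30236 probes with a value on all 5 arrays, and 0 members and 0.00% of all probes passed after adjustment. The slope was positive in 5 members and negative in 2 (4 and 3 with arrays scaled to the 75th percentile), with a median of 0.06 on the log2 scale per 10 kPa, against 0.01 over all probes. Hspb1 had the largest slope by size, -0.14 per 10 kPa (standard error 0.06, limma adjusted p = 0.9999). Its mean level was 17.05 in the 2 rats at 145 kPa and 16.27 in those at 200 kPa, and the rat at 175 kPa had 17.11. Both rats at 200 kPa were below the other 3 blast rats, and M2 and M3, which share a pressure, differed by 0.70. Hsp90aa1 had a slope of 0.11 (standard error 0.12) and Hspa8 one of 0.09 (standard error 0.06). These slopes depended on single rats: with 1 blast rat left out in turn they ran from -0.21 to -0.094 for Hspb1, from 0.0060 to 0.27 for Hsp90aa1 and from 0.047 to 0.16 for Hspa8. Without M2, 3 members had a slope at an unadjusted p under 0.05, where 15.7% of all probes then did (4744 of 30238).

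Each rat's members were set against their own means over the 8 rats. XH1 (mean deviation 0.36 on the log2 scale), M2 (0.28), C1 (0.22) and C3 (0.11) were above, XH3 was close to the mean (0.02), and M3 (-0.27), C2 (-0.34) and H1 (-0.38) were below. Sham control and blast rats stood at both ends of this order. In C2, 0 of the 7 members were above their mean, in H1 only Hspb1 was, and in C1 all 7 were. The pooled SD between rats of a group had a median of 0.43 over the members, against 0.39 over the probes well above background on all arrays.

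Across the 8 rats, the 15 pairs among the 6 members other than Hspb1 were all positively correlated, with Pearson's r between 0.44 and 0.96, and the 6 pairs with Hspb1 were all negative, between -0.88 and -0.28. Among all pairs of the 17468 probes well above background on every array, 51.4% had r above 0 and 9.82% had r below -0.7, against 4 of the 21 pairs of members below -0.7. Of the 21 pairs, 11 had a permutation p under 0.05 after Benjamini-Hochberg adjustment over the pairs by Pearson's r and 2 by Spearman's rho. The share of all pairs of probes that would pass such a test was not computed, so these counts have no background beside them. Hspa8 and Hsp90aa1 had r = 0.957 (permutation p = 0.000546, adjusted 0.00833) and rho = 0.786 (permutation p = 0.0279, adjusted 0.0652). Hsp90aa1 and Hspd1 had r = 0.956 (permutation p = 0.00131, adjusted 0.00833) and rho = 0.952 (permutation p = 0.00114, adjusted 0.0240). The chaperonin pair, Hspd1 and Hspe1, had r = 0.799 (permutation p = 0.0141, adjusted 0.0296) and rho = 0.857 (permutation p = 0.0107, adjusted 0.0652), but did not pass with arrays scaled to the 75th percentile (r = 0.619, permutation p = 0.103, adjusted 0.180) or on the deposited values (r = 0.760, permutation p = 0.0261, adjusted 0.0548). Hspa8 and Hspb1 ran in opposite directions, with r = -0.883 (permutation p = 0.00476, adjusted 0.0143) and rho = -0.714 (permutation p = 0.0576, adjusted 0.0864). This pair too did not pass with arrays scaled to the 75th percentile (r = -0.704, permutation p = 0.0482, adjusted 0.101). All correlations between members used the brightest probe of each and were not repeated on the other probes. For Hspa8 the probes disagreed: M3 was the lowest of the 8 rats on the brightest (15.65) but above every sham control on A_64_P014723 (10.25).

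Each pair was also computed on 6 rats. Without the 2 rats farthest from the median of the first gene of each pair (H1 and M3 in these 4 pairs), r was 0.954 for Hsp90aa1 and Hspd1 (permutation p = 0.00694, adjusted 0.0365) and 0.995 for Hspd1 and Hspe1 (permutation p = 0.00278, adjusted 0.0194). With 6 rats Hspa8 and Hsp90aa1 no longer passed the test although r was 0.875 (permutation p = 0.0569, adjusted 0.0942), nor did Hspa8 and Hspb1 (r = -0.618, permutation p = 0.199, adjusted 0.261). Without C2 and H1, r for Hsp90ab1 with Hspd1 went from 0.802 to 0.493 (permutation p = 0.326, adjusted 0.361) and with Hspe1 from 0.890 to 0.655 (permutation p = 0.144, adjusted 0.202). Other pairs rose and passed. Without C1 and M3, r for Hspa5 went from 0.440 to 0.908 with Hspe1 (permutation p = 0.0181, adjusted 0.0474) and from 0.518 to 0.932 with Hsp90ab1 (permutation p = 0.0139, adjusted 0.0458). On 6 rats 10 of the 21 pairs passed in place of 11, and 0 of those with Hspb1. The median r of the 15 pairs without Hspb1 was 0.908, against 0.802 on 8 rats. With each rat set against the mean of its own group, the 15 pairs without Hspb1 kept positive values, between 0.52 and 0.96, while 8 of the 21 pairs passed the adjusted threshold in place of 11, and 0 of those with Hspb1 (Hspa8 and Hspb1 r = -0.882, permutation p = 0.0278, adjusted 0.0583). Permuting within groups, or over 6 rats, allows fewer arrangements than permuting all 8 rats. The p-values are then coarser, and the counts of passing pairs are not directly comparable with 11. Among all pairs of those 17468 probes, 1.88% had r above 0.9, against 19.0% of the pairs of members (4 of 21). Of these probes, 8.12% had r above 0.9 with Hspa5, 6.97% with Hsp90aa1, 6.35% with Hspd1 and 6.26% with Hspa8, but 1.29% with Hsp90ab1, 1.02% with Hspe1 and 0.212% with Hspb1.

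The order of the rats went along with the columns of the slide that held their arrays. All 8 arrays shared 1 slide (2 rows, 4 columns) and 1 day of scanning, and the 4 rats in columns 1 and 2 (M2, C1, C3 and XH1) were the ones with the highest mean deviations. Between the 2 rows of the slide all 7 members overlapped. Hspa5, Hspd1 and Hspe1 had all 4 rats of columns 1 and 2 above all 4 rats of columns 3 and 4, and so 3 of the 7 members had no overlap between the sides, where 12.6% of all probes did. Which members these were depended on the probe, as the sides overlapped on the second probe of Hspe1 and did not on the second probe of Hsp90ab1 and on A_64_P061286 of Hspa8. Hsp90aa1 had the largest difference between the sides, with means of 13.25 in columns 1 and 2 and 12.33 in columns 3 and 4, and Hspb1 alone was lower in columns 1 and 2, at 16.56 against 16.89. With each rat set against the mean of its side, a comparison chosen after the data were seen, 0 of the 21 pairs passed the adjusted threshold by Pearson's r, where permutations within the sides can give no p below 0.00174. Under it 14 of the 15 pairs without Hspb1 remained positive, r was 0.897 for Hspa8 and Hsp90aa1, 0.880 for Hsp90aa1 and Hspd1 and -0.930 for Hspa8 and Hspb1, while for Hspd1 and Hspe1 it went from 0.799 to 0.474 (permutation p = 0.528, adjusted 0.739) and for Hspa5 and Hspe1 it turned from 0.440 to -0.386. The values with Hspe1 are for its brightest probe, on which M3 (13.88) was close to the high rats. On the second probe of Hspe1, where M3 (12.20) was low, these correlations were not computed. With 4 rats on each side, no correlation was computed within a side. The sides held 2 sham control and 2 blast rats in columns 1 and 2, and 1 sham control and 3 blast rats in columns 3 and 4. With the side as a block, the log2 fold changes of Hspa8, Hspd1 and Hspb1 changed sign, to 0.062, 0.14 and -0.014, that of Hspa5 shrank to -0.051, and those of Hsp90aa1, Hsp90ab1 and Hspe1 grew to 0.27, 0.31 and 0.31.

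**Figure D2:**
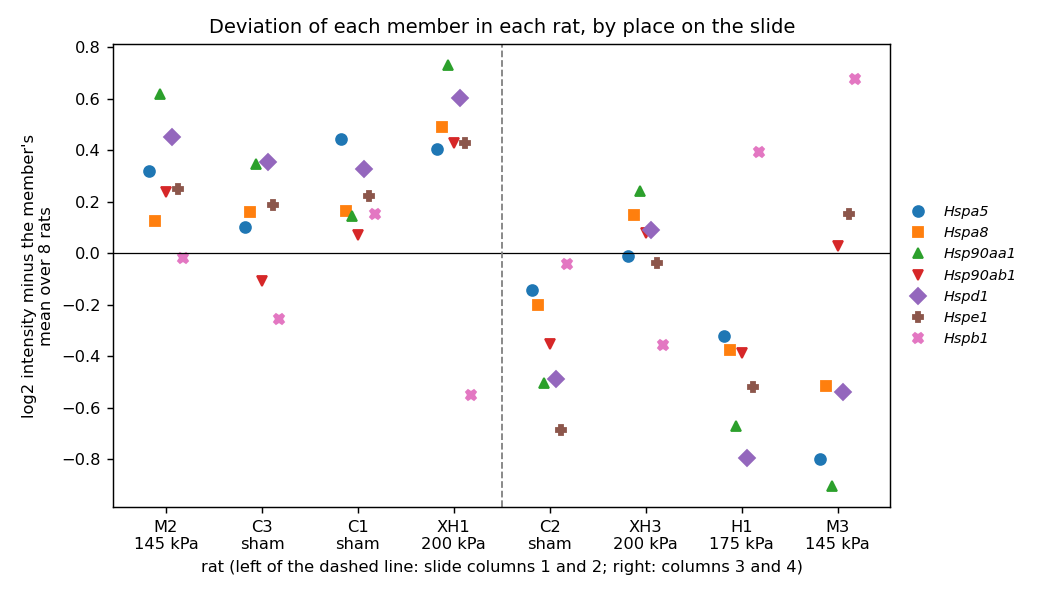
Deviation of each member's log2 intensity from its own mean over the 8 rats (vertical axis), with the rats arranged by the place of their array, columns 1 and 2 of the slide left of the dashed line and columns 3 and 4 right of it. Most members of M2, C3, C1 and XH1 lie above 0 and most members of C2 and H1 below it, while Hspb1 is highest in M3 and H1.

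**Figure D3:**
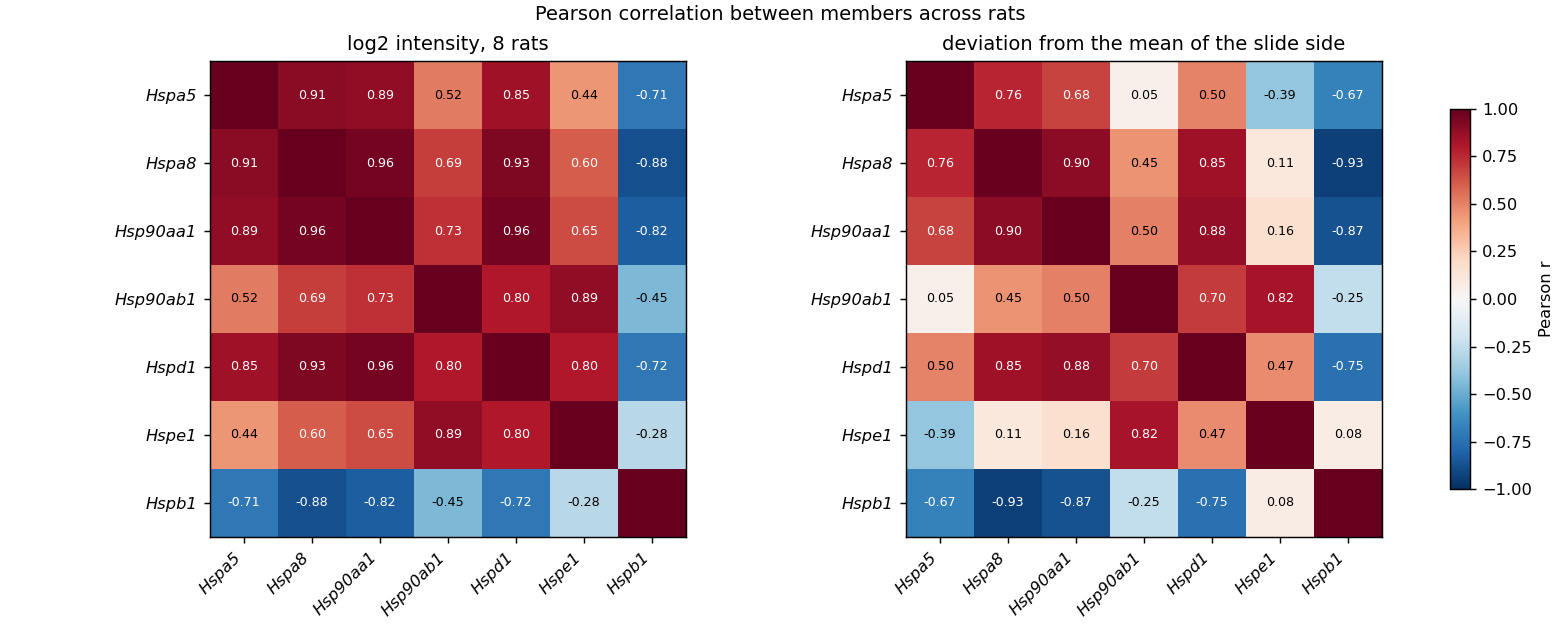
Pearson's r between the brightest probes of the 7 members, on a colour scale from -1 to 1. It is given by log2 intensity in the 8 rats (left) and by deviation from the mean of the slide side (right). The row of Hspb1 is negative on the left, and on the right the values of Hspe1 with Hspa5, Hspa8 and Hsp90aa1 come closer to 0 or turn negative.

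The arrays differed in other ways that were set beside the members. The share of spots well above background was lowest in M3 (65.9%) and C2 (66.5%), which with H1 (69.1%) were the rats with the lowest mean deviations, although XH3 (68.9%) and C3 (68.8%) were below H1 in this share. It was highest in C1 (73.0%) and M2 (70.9%). The part of the signal strength, and of the place on the slide, in the members' variation was not tested beyond the values above. Hbb (NM_033234), the beta chain of haemoglobin and here a marker of red cells, had a log2 intensity of 10.21 in C1, 13.96 in C2 and 11.64 in C3, and of 17.42 in M2, 13.34 in M3, 15.37 in H1, 13.31 in XH1 and 14.43 in XH3 on its brightest probe. Hbb was higher in blast rats by 2.84 on the log2 scale on this probe (exact permutation p = 0.0893) and by 3.46 on the other (exact permutation p = 0.0357), with a limma adjusted p of 0.9999 for both. M2, the highest rat for Hbb, and C1, the lowest, were both above the mean for most chaperones, and the part of red cells in the members' levels was not tested.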

How the data were processed

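RNA of 8 rats was read on Agilent 1-colour arrays. The authors deposited, for each spot, an intensity from which the software had subtracted background (Feature Extraction 10.7.1.1, per the file headers), and a table of log2 values, each column of which had a median of 6.70 and correlated with log2 of its array's intensity at 0.9985 or more. Here spots with outlier flags were dropped, the log2 intensities of a probe's remaining spots were averaged, and the arrays were quantile normalized on the intensity scale with a lower limit of 3.0, as the methods state, before the final log2. A gene was represented by its probe of highest mean, and its other probes are given by their differences. limma 3.58.1 in R 4.3.3 compared the groups, with p adjusted over 30366 probes measured on 2 or more arrays per group, and fitted pressure among the blast rats. Single genes were tested over all 56 divisions of the rats into 3 and 5 (exact, two-sided), and correlations by permuting rats. Of these steps, the limma fits of group and of pressure were checked on simulated data. Alternatives covered normalization, background, filters, tests, blocks, values and single rats. Gene symbols came with the list of accessions. The members and lists were chosen with earlier results of these data known. Other chaperone genes and, apart from Hbb, cell type markers were not analysed here, since the gene table (Rrattus_CSIRO_v1) matched 0 accessions. That table is for Rattus rattus, the species in the series label, whereas the study names its rats Rattus norvegicus. No sequence is given.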

Additional observations from a re-analysis of the deposited data

How the results depend on the processing

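Under every alternative run, each rat left out in turn included, 0 of the 7 members had an unadjusted p under 0.05 for blast against sham, and 0 had groups without overlap wherever that count could change. Over all probes the adjusted count of 0 held except without C1 (2) or C3 (3). The unadjusted count of 850 became 439 where only probes above background on 3 or more arrays were kept, 1671 with array quality weights, and 657 to 1649 without single rats (1649 without H1).

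No member passed the adjusted threshold in any setting, and the signs of small differences moved. The log2 fold change of Hspa8 was 0.043 with scaling to the 75th percentile, 0.047 with array quality weights, 0.062 with slide side as a block and 0.14 over all its probes. That of Hspb1 was -0.057 with array quality weights and -0.014 with slide side as a block, that of Hsp90aa1 -0.014 with normexp and -0.051 with slide row as a block, and that of Hspd1 0.14 with slide side as a block. Slide side as a block also put Hsp90aa1 at 0.27, Hsp90ab1 at 0.31 and Hspe1 at 0.31. Without single rats the log2 fold changes ranged from -0.36 to -0.038 for Hspa5, -0.20 to 0.055 for Hspa8, -0.085 to 0.22 for Hspb1, -0.24 to 0.23 for Hsp90aa1, 0.094 to 0.32 for Hsp90ab1, -0.38 to 0.089 for Hspd1 and -0.15 to 0.30 for Hspe1. Hspa5 and Hsp90ab1 did not change sign, but several alternatives leave the fold change as it is by construction, and both came near 0 in others: Hspa5 was -0.029 with array quality weights and -0.051 with slide side as a block, and Hsp90ab1 was 0.027 over all its probes, of which the second alone gave -0.15.

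For pressure, 860 probes became 339 with the dim-probe filter, 484 with normexp and 409 to 4744 without single rats (4744 without M2, 1301 without M3, 409 without XH1, 508 without XH3), and the members' count ranged from 0 to 3. The slope of Hsp90ab1 was -0.0096 with scaling to the 75th percentile. With all 8 rats the slopes were -0.0079 for Hspa5, 0.00093 for Hspa8, -0.0029 for Hspb1, 0.0060 for Hsp90aa1, 0.012 for Hsp90ab1, -0.0023 for Hspd1 and 0.0078 for Hspe1. Without single rats they ranged from -0.0079 to 0.18 for Hspa5, 0.047 to 0.16 for Hspa8, -0.21 to -0.094 for Hspb1, 0.0060 to 0.27 for Hsp90aa1, -0.030 to 0.054 for Hsp90ab1, -0.010 to 0.18 for Hspd1 and -0.068 to 0.025 for Hspe1.

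The 11 correlated pairs became 0 with slide sides removed, an alternative chosen after the data were seen, and 8 to 12 otherwise. Settings that permuted within groups or sides, or over fewer rats, had fewer possible arrangements, so their counts are not directly comparable. Hspb1 and Hspe1 had r = 0.0034 with scaling to the 75th percentile and 0.078 with sides removed, and Hspa5 and Hspe1 -0.39 with sides removed. These values are for the brightest probes. The numbers in the rats' titles were not taken to pair them: deviations of same-numbered rats correlated between -0.58 and 0.50. A replicate block of these numbers left 0 members under the unadjusted threshold and put Hspa5 at -0.21. Apart from filters, left-out rats and removed sides, which change what enters by construction, the cause was not tested. All member probes were well above background on every array.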
